A study of Mus musculus with 1 sample.

Results

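The immediate early and AP-1 genes described here are 10 named genes: Fos, Fosb, Fosl1, Jun, Junb, Jund, Egr1, Atf3, Ier2 and Ier3. They were selected by symbol from the 32285 genes of the library, and all 10 had at least 1 molecule counted. The single sample held wild type gastric organoids, which are epithelial cultures grown from mouse stomach, with treatment given as none and cell type as epithelial cell. Cultures were harvested at day 7 and brought into single-cell suspension with trypsin-EDTA (0.05%) for 30 min at 37 °C, then strained through 35 μm mesh. A 10x Genomics 3' kit gave counts of unique molecular identifiers (UMIs), each standing for 1 captured transcript end. Of 1991 barcodes, 1892 had at least 500 genes and at most 20% mitochondrial UMIs, and these cells carry all values below unless stated. Age and sex of the mice, the number of mice or cultures, and the passage were not given. The series text also names 2 further organoid genotypes, KP and EKP, which are not analysed here.

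Immediate early genes are transcribed within minutes of a stimulus without new protein synthesis, and their messages decay quickly. FOS and JUN proteins are basic leucine zipper (bZIP) factors that pair to form AP-1, which binds DNA at TGANTCA sites. Growth factor signalling through ERK acts on serum response factor and its ELK partners at the Fos and Egr1 promoters, and dissociation of tissue with warm enzymes is widely known to induce these genes. The library contains no undigested organoids, so levels present in the intact culture and levels acquired during digestion cannot be told apart.

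The 1892 cells held 20118334 UMIs, with a median of 8513 per cell (range 890 to 47183), and a median of 4.07% mitochondrial UMIs. Of the epithelial markers, Krt18 had a UMI in 99.6% of cells, Krt8 in 97.9%, Epcam in 96.6% and Cdh1 in 52.1%. The defining markers Cblif and Pga5 of chief cells, Atp4b of parietal cells and Chga of endocrine cells had no UMI. Other markers of these classes were sparse, with 71 UMIs of Pgc in 31 cells (1.64%), 29 of Atp4a in 27 cells (1.43%), 7 of Bhlha15, 2 of Chgb and 1 of Gast. Of the pit cell genes, Tff1 was seen in 54.7% of cells, Gkn1 in 23.0%, Gkn2 in 16.8% and Muc5ac in 2.38%. Among markers of non-epithelial cells, Ptprc, Cd3e and Col1a1 had 1 UMI each, Dcn and Cdh5 had 0, Pecam1 had 3, Pdgfra had 5 and Cd68 had 196. With 1 library there is no replicate of any value. Intervals are 95% intervals for counting error only, and no test between conditions was possible.

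The 10 genes together contributed 162787 UMIs, or 8092 UMIs per 1000000 of all gene UMIs (CPM; 8052 to 8131). This is 0.809% of all UMIs, and Fos alone supplied 28.9% of it. In single cells the summed level had a median of 8254 CPM, with 1714 at the 5th percentile and 13688 at the 95th. Because a 3' UMI counts transcript ends, CPM values were compared between genes without division by length.

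Among the FOS family, Fos, the archetypal AP-1 partner of JUN proteins, was the highest of the set at 2338 CPM (2317 to 2359), rank 91 of all genes. Fos UMIs were found in 97.2% of cells, with a median of 20 and a maximum of 123 UMIs in a cell. Scaled to 10000 UMIs per cell, Fos ran from 2.25 at the 5th percentile through 22.8 at the median to 46.4 at the 95th. Since free RNA was not measured, a cell with 1 or a few Fos UMIs cannot be told apart from background. Fosb, which encodes the related FOSB protein, stood at 505 CPM (495 to 514) in 84.5% of cells. Fosl1, which encodes FRA-1, was the exception of the set, with 141 UMIs in 133 cells (7.03%; 5.92 to 8.28), or 7.01 CPM (5.90 to 8.27). The Fos gene lies on the plus strand of chromosome 12 from 85473890 to 85477273, Fosb on the minus strand of chromosome 7 from 19302696 to 19310051, and Fosl1 on the plus strand of chromosome 19 from 5447547 to 5455946 (GRCm38, GENCODE gene bounds).

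In the JUN family the order was Jund, Junb and Jun. Jund, usually the most constitutive of the JUN genes, reached 1021 CPM (1007 to 1035) and was detected in 97.7% of cells, the largest share among the 10 genes. Junb stood at 556 CPM (546 to 567) in 91.6% of cells. Jun, which encodes the classical AP-1 subunit c-Jun, stood at 518 CPM (508 to 528) in 88.3% of cells. Jun is on the minus strand of chromosome 4 (95049034 to 95052222), Junb on the minus strand of chromosome 8 (84974484 to 84978718) and Jund on the plus strand of the same chromosome (70698949 to 70700616). Genes on the opposite strand overlap Junb (Prdx2, 4759 UMIs), Fosl1 (Ccdc85b, 1269 UMIs), Jun (Junos, 9 UMIs) and Jund (Gm11175, 4 UMIs). The sources used here do not state how the counting handled strand, so these values carry that uncertainty.

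Of the remaining members, Atf3, a stress-induced bZIP factor of the ATF/CREB family, was second to Fos at 1085 CPM (1070 to 1099) in 91.6% of cells. Egr1, a zinc finger factor induced through ERK, reached 1004 CPM (990 to 1018) in 91.9% of cells. Ier3, which encodes a short-lived regulator of survival signalling, stood at 634 CPM (623 to 645) in 90.4% of cells. Ier2, which encodes a nuclear protein induced by growth factors, stood at 425 CPM (416 to 434) in 88.7% of cells. Median UMIs per cell were 10 for Atf3, 7 for Egr1, 5 for Ier3 and 4 for Ier2. The gene bounds are chromosome 1 from 191170296 to 191218039 (minus strand) for Atf3, chromosome 18 from 34859823 to 34864984 (plus strand) for Egr1, chromosome 8 from 84661331 to 84662852 (minus strand) for Ier2 and chromosome 17 from 35821684 to 35822923 (plus strand) for Ier3.

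In order of level the genes ran Fos, Atf3, Jund, Egr1, Ier3, Junb, Jun, Fosb, Ier2 and Fosl1. Jund and Egr1 had overlapping intervals, as did Jun and Fosb, and every other pair of neighbours was separated beyond counting error. For scale, the median level of the 6490 genes with a UMI in at least 10% of cells was 30.9 CPM. All members except Fosl1 lay between rank 91 and rank 286 of all genes, and Fosl1 was at rank 7696.

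To compare cells of unequal depth, each cell was thinned at random to 3000 UMIs, which kept 1835 cells and left out 57 shallower ones. At that depth the mean was 7.19 UMIs per cell for Fos, 3.59 for Atf3, 3.09 for Jund and 2.84 for Egr1, and between 1.34 and 1.99 for Ier2, Fosb, Jun, Junb and Ier3. The extra-Poisson squared coefficient of variation (the relative variance left after counting noise is subtracted) was lowest for Jund, at 0.165, below the median of 0.220 over all genes in at least 10% of cells. Junb and Fos were close above that median, at 0.247 and 0.251. Ier3 was the most unequally distributed of the well-detected members, at 0.660, followed by Fosb at 0.472 and Atf3 at 0.465. The value of 1.08 for Fosl1 rests on a mean of 0.0229 UMIs per cell.

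**Figure D1:**
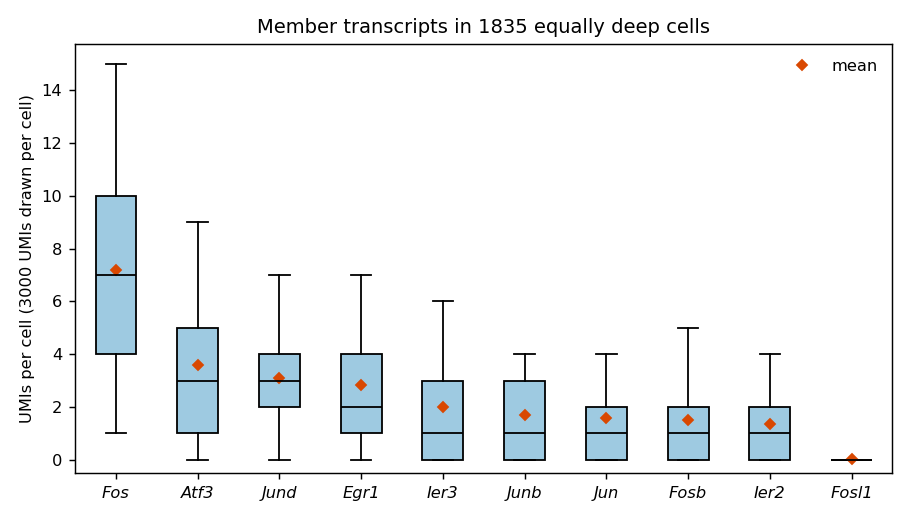
UMIs per cell of each member after thinning 1835 cells to 3000 UMIs (y axis), with members ordered by mean (x axis). Boxes span the 25th to the 75th percentile with the median as a line, whiskers reach the 5th and 95th percentiles, and diamonds mark the mean. Fos is highest with a median of 7 and Fosl1 is at 0 in nearly all cells.

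UMIs of most of the set were found together in most cells. With all UMIs used, 1275 cells (67.4%) had at least 9 of the 10 genes. In thinned cells the median was 8 genes, 937 cells (51.1%) had at least 8, and 112 had at most 3.

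Sorting the thinned cells by their Fos UMIs showed which members scaled with Fos. In the 180 cells with 0 or 1 Fos UMI, the mean of Atf3 was 0.789 UMIs, against 2.73, 3.78 and 4.91 in the cells with 2 to 4, 5 to 9, and 10 or more. Egr1 followed the same order, at 0.744, 2.16, 3.01 and 3.83 UMIs. Both genes were thus low where Fos was low, and their largest step was between the first and the second of these groups. Jund changed less, from 2.03 UMIs in the cells lowest in Fos to 3.52 in the highest, and Ier3 went from 1.37 to 2.28. Fosl1 did not follow the order, at 0.0111, 0.0272, 0.0270 and 0.0177 UMIs.

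Covariation was described by Pearson's r of ln(1 + UMIs per 10000) across the 1892 cells. The points are cells of 1 library, which share depth and handling, so r is given without a p. The 45 member pairs had a median r of 0.305, and 33 of them reached 0.2. For comparison, 0.0825% of all 21056805 pairs among genes in at least 10% of cells reached 0.2, and their median r was 0.0130. Those genes had a median of 30.9 CPM and were not matched to the members in level, so the comparison is not one at equal level. Without Fosl1, which had a UMI in less than 10% of cells, the 36 pairs had a median of 0.369, and the same 33 reached 0.2. After thinning, which discards UMIs, the median over the 45 pairs was 0.165 and 18 pairs reached 0.2. The share of all pairs is not given for thinned counts.

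Fos, Atf3 and Egr1 formed the most tightly linked trio, with r of 0.664 for Fos and Atf3, 0.624 for Fos and Egr1, and 0.558 for Egr1 and Atf3. For Fosb, r was 0.533 with Egr1, 0.531 with Atf3 and 0.507 with Fos. Fos reached 0.527 with Jun and 0.519 with Junb, but 0.382 with Jund. Each gene was also set against the mean z-score of the other 9. By that measure Fos (0.723), Atf3 (0.699) and Egr1 (0.653) led, then Junb (0.595), Fosb (0.583) and Jun (0.545), then Ier2 (0.446) and Jund (0.417). Ier3 (0.280) and Fosl1 (0.067) were the loosest. The closest partner of Ier3 was Junb (0.285), and the highest value for Fosl1 was 0.136 with Fosb. A first principal component over the 10 genes held 41.3% of their variance. The second held 11.1% and was weighted mainly on Fosl1 and Ier3.

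**Figure D2:**
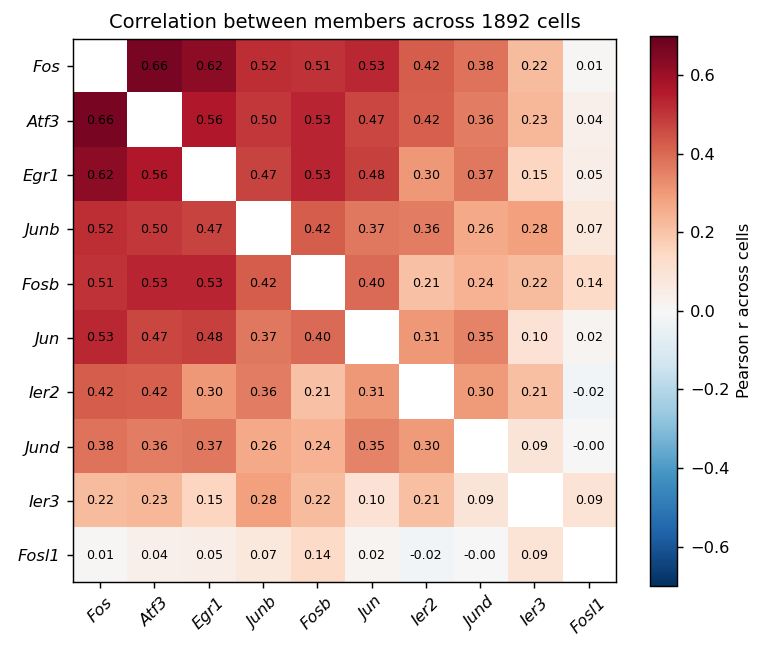
Pearson r between each pair of members across 1892 cells (colour and printed value), with both axes listing the 10 genes in the same order. The upper left block of Fos, Atf3, Egr1, Junb, Fosb and Jun holds r from 0.37 to 0.66, and the rows of Ier3 and Fosl1 are pale.

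The coupling was present under both cell tags and in each depth range. Median pair r was 0.295 in the 1062 cells carrying hashing tag CMO301 and 0.347 in the 830 carrying CMO302, 2 cell tags whose assignment to suspensions was not given. In 4 equal groups of cells ordered by depth it was 0.307, 0.292, 0.376 and 0.367. Within the 7 clusters described below it ranged from 0.207 to 0.549, with the median over clusters taken pair by pair at 0.328.

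The members that moved together were also compared in the 250 bases before their start, using RefSeq windows (GRCm38.p6), which were found for 7 of the 10 genes: Fos, Fosb, Jun, Junb, Jund, Atf3 and Ier3. The windows of Fos, Atf3, Fosb and Junb are shown because these genes were closely tied to the rest, and that of Ier3 because it was loosely tied. Each is written 5' to 3' on the strand of the gene, and capitals mark motif matches. Their positions are chr12:85473640-85473889 (plus strand) for Fos, chr1:191183334-191183583 (minus strand) for Atf3, chr7:19310046-19310295 (minus strand) for Fosb, chr8:84978749-84978998 (minus strand) for Junb and chr17:35821463-35821712 (plus strand) for Ier3.
Fos: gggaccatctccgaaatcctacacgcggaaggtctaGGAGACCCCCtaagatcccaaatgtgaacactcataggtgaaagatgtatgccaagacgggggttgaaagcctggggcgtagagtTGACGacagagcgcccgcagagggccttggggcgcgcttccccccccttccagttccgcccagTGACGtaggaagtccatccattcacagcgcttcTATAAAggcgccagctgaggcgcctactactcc
Atf3: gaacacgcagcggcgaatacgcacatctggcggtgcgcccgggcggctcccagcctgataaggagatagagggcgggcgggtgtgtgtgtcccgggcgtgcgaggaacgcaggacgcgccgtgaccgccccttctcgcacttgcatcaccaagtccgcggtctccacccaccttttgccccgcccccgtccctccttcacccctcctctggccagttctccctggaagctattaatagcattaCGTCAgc
Fosb: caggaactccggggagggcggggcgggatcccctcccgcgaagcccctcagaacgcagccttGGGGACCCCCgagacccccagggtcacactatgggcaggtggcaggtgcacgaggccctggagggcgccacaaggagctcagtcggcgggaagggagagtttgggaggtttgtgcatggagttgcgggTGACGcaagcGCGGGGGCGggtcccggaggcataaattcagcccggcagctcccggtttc
Junb: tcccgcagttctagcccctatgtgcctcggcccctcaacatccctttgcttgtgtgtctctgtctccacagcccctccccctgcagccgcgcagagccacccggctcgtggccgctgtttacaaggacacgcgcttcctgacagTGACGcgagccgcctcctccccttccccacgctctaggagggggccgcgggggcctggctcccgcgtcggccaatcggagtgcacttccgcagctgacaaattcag
Ier3: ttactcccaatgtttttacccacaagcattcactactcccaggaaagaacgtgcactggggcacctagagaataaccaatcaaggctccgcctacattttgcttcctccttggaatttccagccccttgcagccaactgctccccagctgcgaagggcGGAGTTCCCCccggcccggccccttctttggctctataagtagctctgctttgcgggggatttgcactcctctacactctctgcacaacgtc

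Motifs were searched on both strands. TGACG, the core of the cyclic AMP response element (CRE) bound by ATF and CREB factors, occurred in 4 of the 7 windows and in 17.9% of all 32536 windows of that length. In Fos it lay at bases -129 to -125 and again at -66 to -62 counted from the start, in Fosb at -60 to -56, in Junb at -106 to -102, and in Atf3 on the opposite strand at -7 to -3, where the printed strand reads CGTCA. A match to the NF-kB motif was present in 3 windows, those of Fos, Fosb and Ier3, against 7.28% of all windows. The TATA box TATAAA was found in Fos only (bases -33 to -28; 12.3% of all windows), and the EGR motif GCGGGGGCG in Fosb only (-50 to -42; 2.60%). The full CRE TGACGTCA, which contains the core (1.56% of all windows), the AP-1 site TGANTCA (6.73%), the CArG box bound by serum response factor (1.48%) and the E-box CACGTG (6.04%) had no match in any of the 7 windows. The windows of Jun and Jund held none of the 8 motifs, and the RefSeq start of Jund was 1210 bases from the nearest GENCODE start. The window of Atf3 lies inside the gene bounds given above, before an internal transcript start rather than the outermost one. A match describes letters, and no match says only that these letters are absent from this window.

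To find the genes that followed the set, each other gene with a UMI in at least 10% of cells was correlated with the member score, the mean z-score of the 10 genes in a cell. Of 6481 genes, 62 (0.957%) had r of 0.2 or more, none had -0.2 or less, and the median r was 0.030. Lowering the limit to 0.1 gave 489 genes, and thinning to 3000 UMIs left 18, all of them among the 62. These genes were other immediate early genes in 19 of 62 cases.

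Hes1, a transcriptional repressor downstream of Notch signalling, ranked first with r of 0.552 and was detected in 92.1% of cells at 855 CPM. Next came the Kruppel-like factor Klf4 (0.531), the EGF receptor ligand gene Hbegf (0.495) and Klf6 (0.463). Klf2 (0.374), the splicing factor gene Srsf5 (0.373), the mRNA decay factor gene Zfp36 (0.367), Ppp1r15a, which encodes a phosphatase subunit of the stress response (0.359), and the antiproliferative gene Btg2 (0.352) were also among the 10 highest. Ranks 11 to 20 were Nfkbiz, Actb, Nr4a1, Thbs1, Krt8, Dusp5, Rhob, Ahnak, Ddx5 and Phlda1, with r from 0.350 down to 0.321. The 20 were therefore not all transcription factors, since cytoskeletal genes (Actb, Krt8) and RNA processing genes (Srsf5, Ddx5) were among them. In thinned cells 17 of these 20 kept r of at least 0.2, and Dusp5 (0.196), Rhob (0.196) and Phlda1 (0.195) were just under it.

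The strongest followers recurred across members. Hes1 or Klf4 was the top non-member gene for Fos, Fosb, Jun, Junb, Egr1, Atf3 and Ier2, with r from 0.277 (Ier2 with Hes1) to 0.526 (Atf3 with Hes1). Jund was led by Klf2 (0.270), the histone gene H3f3b (0.258) and Klf6 (0.254). Ier3 had a different trio, Actb (0.338), the surface antigen gene Ly6a (0.335) and the homeobox gene Rhox5 (0.334). For Fosl1 the highest were Chka (0.158), Slc7a1 (0.142) and Nr4a1 (0.131), which at 141 UMIs are weak values.

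Of the 36 other immediate early genes listed, 33 were measured in enough cells and 19 reached r of 0.2, with a median of 0.238 against 0.030 over all genes, of which 0.957% reached 0.2. In thinned cells 8 of them did. Besides those named, Dusp1 (0.320), Trib1 (0.317) and Zfp36l1 (0.309) were among them. The list was not uniform: Gadd45b (0.014), Gadd45g (-0.029) and Per1 (0.029) showed no such relation, although Gadd45b was present in 59.8% of cells. Like the other lists, it was chosen with earlier results of these data known, so its comparison with all genes is not independent. Other bZIP partners of AP-1 had a median of 0.067 and 0 of 11 measured genes reached the limit, with Cebpb (0.187) and Fosl2 (0.168) highest. The kinases and SRF-pathway factors upstream of these genes were near the values for all genes, with 0 of 15 and a median of 0.024, and Srf, Elk1, Elk4 and Mrtfa were detected in too few cells to be measured.

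Feedback genes split. Of 8 measured ERK feedback genes, Dusp5 (0.334) and Dusp6 (0.218), phosphatases that act on ERK, reached the limit, while Spry1 (0.089) was the highest of the others. Of 8 NF-kB feedback genes, Nfkbiz (0.350) and Nfkbia (0.253), both encoding proteins of the IkB family, did so. Listed AP-1 target genes such as Plaur and Areg gave 0 of 8, with a median of 0.065, a count that at 0.957% of all genes does not set the list apart. Heat shock genes gave 3 of 12, which were Dnajb1 (0.257), Hspb1 (0.236) and Hspa8 (0.235), and Ppp1r15a was the 1 of 7 stress and unfolded protein genes. G2/M genes (0 of 6, median -0.056) and replication genes (0 of 4, median -0.034) lay slightly below 0. Housekeeping genes had a median of -0.003, and 2 of 7 were over the limit, Actb (0.339) among them. In thinned cells none of the ERK feedback or heat shock genes reached 0.2, and 1 NF-kB feedback gene did.

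**Figure D3:**
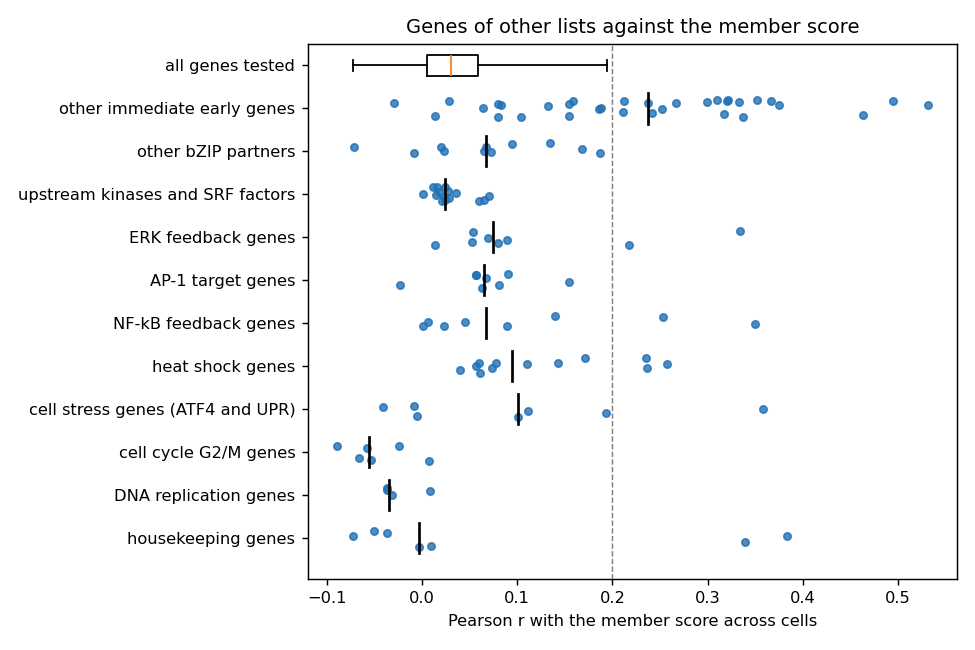
Pearson r with the member score across 1892 cells (x axis) for genes of each fixed list (y axis). Points are genes and vertical bars are list medians, the box at the top spans the 25th to the 75th percentile of all 6481 genes with whiskers at the 1st and 99th, and the dashed line marks 0.2. The other immediate early genes sit farthest right, with a median of 0.238.

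The size of the relation was read from the 473 cells lowest and the 473 cells highest in the score, with each member left out of its own score. Fos rose from 1120 to 3212 CPM (ratio 2.87; 2.78 to 2.96), Atf3 from 419 to 1520 (3.63; 3.44 to 3.82), Egr1 from 453 to 1375 (3.04; 2.89 to 3.20) and Fosb from 191 to 735 (3.84; 3.56 to 4.14). Ratios were 2.84 for Junb, 2.73 for Jun, 1.94 for Ier2, 1.59 for Jund and 1.57 for Ier3. Fosl1, with 16 and 49 UMIs, gave 2.56 (1.43 to 4.82). All 10 were at 1.5 or more, against 7.78% of the 6481 other genes, for which the score held all members. Among followers, Klf4 went from 157 to 597 CPM (3.81; 3.50 to 4.15), Hes1 from 435 to 1160 (2.67; 2.53 to 2.81) and Nr4a1, an orphan nuclear receptor gene, from 25.9 to 125 (4.82; 3.93 to 5.96). The less abundant Egr3 went from 7.29 to 37.0 CPM (5.07; 3.46 to 7.67).

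Cells with high scores were also slightly deeper and less often assigned to S or G2M. Median UMIs were 6962 in the lowest 473 cells and 8828 in the highest, and cells scored as S or G2M made up 34.0% and 20.3%. The 6 measured G2/M genes had high-to-low ratios from 0.334 (Birc5) to 0.808 (Top2a). Median mitochondrial shares were 3.92% and 4.16%, the share of CMO302 cells 44.6% and 43.8%, and the summed UMIs of non-epithelial markers 61 and 44. The score had r of 0.204 with log UMIs and -0.065 with the mitochondrial share. Within the clusters described below, the latter ranged from -0.278 in cluster 1 and -0.168 in cluster 4 to 0.051 in cluster 3. With log UMIs, the mitochondrial and ribosomal shares and the cycle scores held constant, the median pair r was 0.311, and 47 genes followed the score at 0.2 or more.

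The lowest r values were small. AY036118 (-0.186), the glutathione transferase gene Gsta1 (-0.168), the ferritin gene Ftl1 (-0.129), Dynlt3 (-0.126) and the metallothionein genes Mt1 (-0.123) and Mt2 (-0.119) were among the 10 lowest, with Gm42418, Rpl37a, Pclaf and Scand1. Gm42418 (-0.120) changed sign after thinning, to 0.022. Levels nevertheless differed widely between the extremes of the score for some of them, since Gsta1 was at 388 CPM in the lowest 473 cells and 25.2 in the highest (ratio 0.065; 0.054 to 0.078). The r of Gsta1 was -0.082 without cluster 7, described below, and its median within clusters was -0.059. Within clusters, median r was 0.014 for Mt1, 0.0001 for Mt2 and 0.003 for Pclaf.

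Clusters were made without the 10 genes, the other immediate early genes and cell cycle, mitochondrial and sex-linked genes, and 7 were found. Cluster 1 (477 cells) was led by Aox3, Scgb3a1, Cbr2, Anpep and Trf, and cluster 2 (382) by Sprr1a, Ly6m, Ndrg1, Cnfn and Atg9b. Cluster 3 (324) was led by 2610528A11Rik, 1700084E18Rik, Mt1, Snhg16 and Lemd2, cluster 4 (297) by Cxcl2, Cxcl5, Mgat4c, Trpm6 and Cxcl1, and cluster 5 (249) by Psca, Pcolce, 2210011C24Rik, Prss22 and Tnfrsf4. Cluster 6 (99) was proliferating-like, with Aspm, Dlgap5, Knl1, Hmmr and Cenpf in front. Cluster 7 (64) was led by Cyba, Reg3g, Gm3776, Gsta2 and Pgc and was left unnamed. Followers such as Hes1 could enter the clustering.

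Summed levels were similar in clusters 1, 2, 4 and 5, between 8497 and 8899 CPM, and lower in clusters 6 (7461), 3 (6597) and 7 (4020; 3898 to 4145). The median cell of cluster 6, at 8150 CPM, was near that of all cells (8254), whereas the medians of clusters 3 and 7 were 6920 and 3846. Cluster 7 was the lowest for 8 members, including Fos at 982 CPM against 2593 in cluster 5 (ratio 2.64; 2.47 to 2.83) and Atf3 at 459 against 1310 in cluster 1 (2.86; 2.60 to 3.15). The cells of cluster 7 were not shallow, with the highest median UMI count of the clusters at 14260, and 62.5% of them were scored as S or G2M. Jund differed least, from 729 CPM in cluster 7 to 1204 in cluster 2 (1.65; 1.53 to 1.78). The median of this ratio was 2.65 over the 10 members and 1.998 over the other genes tested. With coarser clustering (resolution 0.3), the median ratio of highest to lowest cluster over members other than Fosl1 was 1.52 rather than 2.64.

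Ier3 had its own pattern. It was highest in the chemokine-led cluster 4 at 967 CPM and in cluster 5 at 873, and lowest in cluster 3 at 327, with 365 in cluster 7. Differences between clusters held 19.6% of the variance of Ier3 across cells, against 10.0% for Fosb, 8.19% for Fos, 3.05% for Ier2, and a median of 1.51% over all genes. Egr1 and Atf3 ranked the clusters differently: Egr1 was highest in cluster 2 (1263 CPM) and 768 in cluster 5, whereas Atf3 was 1066 in cluster 2 and 1251 in cluster 5. Fosl1 was highest in cluster 6 (10.8 CPM) and lowest in cluster 3 (1.35), on few UMIs.

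**Figure D4:**
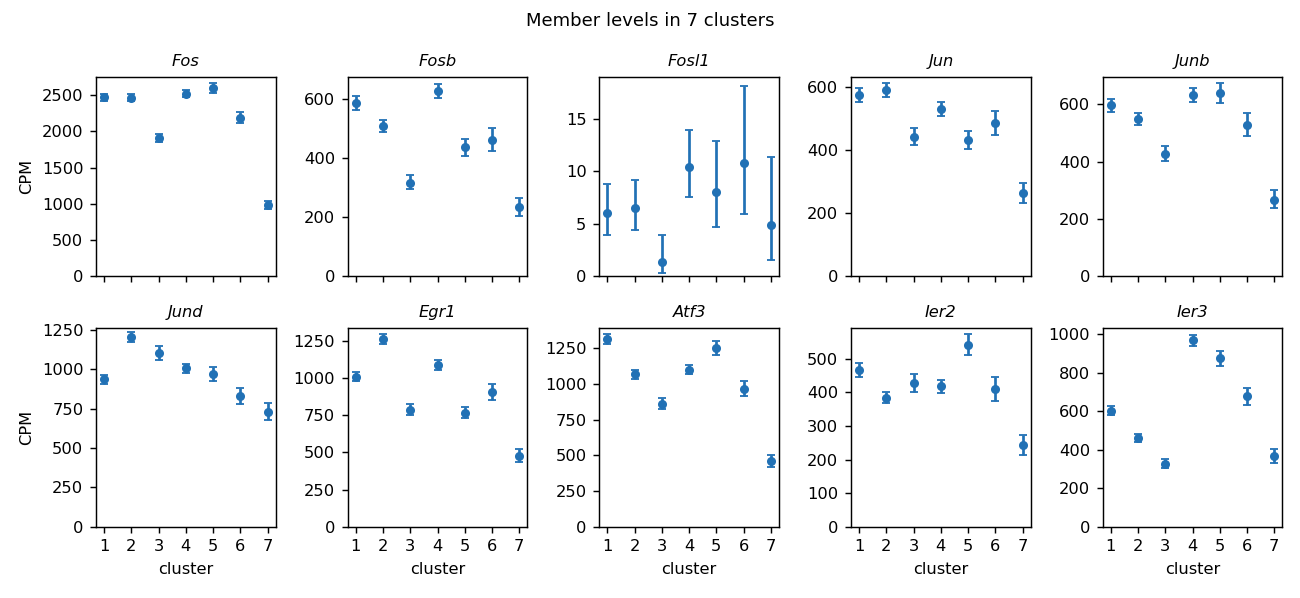
CPM of each member (y axes, each from 0) in the 7 clusters (x axes). Points are levels summed over the cells of a cluster and bars are 95% Poisson intervals, which cover counting error only. Cluster 7 is lowest for 8 members, and Ier3 peaks in clusters 4 and 5.

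Every cluster contained cells with little of the set. A summed level under 3000 CPM, a limit chosen after the values were seen, was found in 177 cells (9.36%; 8.08 to 10.8), of which 49 were under 1000 CPM. The share was 4.38% in cluster 4 and 4.82% in cluster 5, and reached 17.3% in cluster 3, 18.2% in cluster 6 and 28.1% in cluster 7. Cluster 6 was the most divided: its score had an SD of 0.794 against 0.484 to 0.677 in the other clusters, and its median pair r of 0.549 was the highest, against 0.207 to 0.333 elsewhere. Within cluster 6, where every cell was assigned to S or G2M, the score had r of 0.092 with the G2M score over 99 cells. The same r was -0.242 in cluster 3 and -0.153 in cluster 7.

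**Figure D5:**
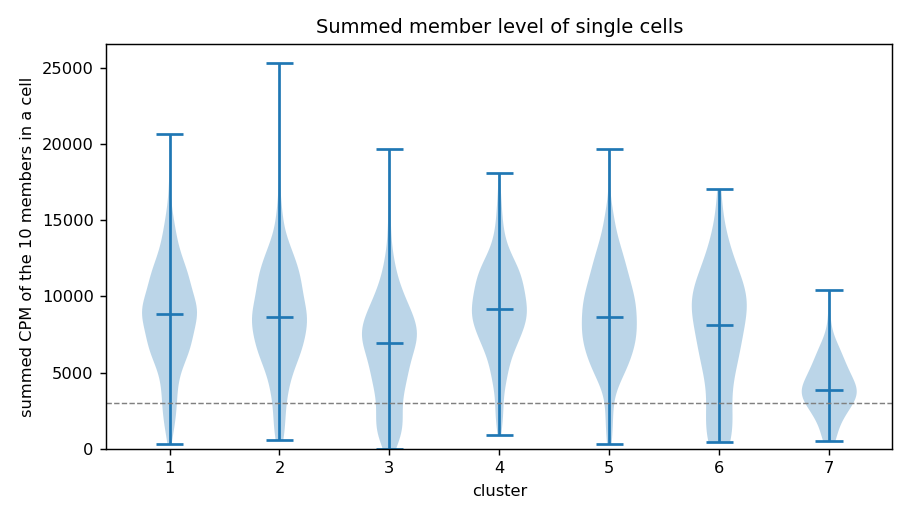
Summed CPM of the 10 members in single cells (y axis) by cluster (x axis). Shapes show the density of cells, horizontal marks are the lowest, median and highest cell, and the dashed line is 3000 CPM. Clusters 3, 6 and 7 hold the largest shares of cells under the line.

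By assigned phase, the summed level was lower in S (ratio to G1 0.887; 0.873 to 0.901) and in G2M (0.789; 0.776 to 0.802). Phases were unevenly spread over clusters. Cells in S or G2M made up 62.5% of cluster 7 (summed level 4020 CPM) and 100% of cluster 6 (7461 CPM). The phase ratios were not adjusted for cluster. In G2M all members but Fosl1 were below their G1 level, from 0.732 for Atf3 to 0.866 for Ier3, and Fosl1 stood at 1.36 (0.809 to 2.19). Cells under 3000 CPM made up 7.89% of G1, 10.9% of S and 19.5% of G2M cells. Between the tags, by contrast, the summed ratio of CMO302 to CMO301 was 0.993 (0.983 to 1.003), and single members ranged from 0.935 for Atf3 to 1.06 for Ier3.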

How the data were processed

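The deposited values are whole-number UMI counts per gene and barcode. The authors mapped reads with Cell Ranger 6.1.2 to GRCm38/mm10, per the submitters' processing notes. No count was altered here. Barcodes with at least 500 genes and at most 20% mitochondrial UMIs were kept, and 12 cells called as doublets by Scrublet stayed in. CPM values are summed counts with exact Poisson intervals, shares of cells have exact Clopper-Pearson intervals, and ratios have exact conditional binomial intervals, all at 95%. Clusters came from scanpy 1.11.5 (2000 variable genes, 30 components, 15 neighbours, Leiden resolution 0.6). The score and correlation code was tested on simulated data. The members and gene lists were chosen with earlier results of these data known. Named genes are all members, the 20 highest and 10 lowest r with the score, the 3 best genes per member, list genes by rank and the 5 leading genes per cluster. No empty droplets were used, so free RNA was not measured. Gene coordinates are from GENCODE, where 32158 of 32285 identifiers were found. One gene that the rule names is not reported here.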

Additional observations from a re-analysis of the deposited data

How the results depend on the processing

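Main summary values were recomputed under other settings. Summed levels were held to the counting interval of the reported value, and all other values to 1.5 times it. By these limits 44 stayed and 9 moved. The summed member level was 8310 CPM without cluster 7 (added after seeing the data), 8141 as a mean over cells and 8276 after thinning to 3000 UMIs, against 8092. Thinning, which removes UMIs, also gave a median pair r of 0.165 with 18 pairs at 0.2, and 18 followers. A limit of 0.1 called 489 followers. Resolution 0.3 gave 1.52 for the median ratio between clusters and 1.46 for the summed level (main 2.64 and 2.21), with 3 clusters instead of 7. Elsewhere the median pair r was 0.252 to 0.347 and the number of followers 45 to 73. Hes1 ranked first in every follower setting except Spearman's rho, where Klf4 did. No paired analysis was possible because a single library holds every cell. At this depth Fosl1 has 141 UMIs, and its values are the least precise of the set.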

Other observations

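The 99 barcodes left out by the limits on genes and mitochondrial share had a median of 901 UMIs and a lower summed member level, 4149 CPM (3790 to 4532; counting intervals). Fosb went the other way, at 826 CPM (671 to 1007) there against 505 in the cells kept, while Fos was at 590 (460 to 746) against 2338 and Egr1 at 599 (468 to 755) against 1004. Fosl1 had no UMI in these barcodes. These values describe 1 library and were not tested.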
